A study of Mus musculus with 2 samples.

Results

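The genes described here encode subunits of the respiratory chain, complexes I to V, from both the nuclear and the mitochondrial genome. They were chosen by symbol alone, with no measured value: every gene whose symbol begins with mt-Nd, mt-Co, mt-Cytb, mt-Atp, Ndufa, Ndufb, Ndufc, Ndufs, Ndufv, Sdh, Uqcr, Cox4, Cox5, Cox6, Cox7, Cox8 or Atp5, without the assembly factors named Ndufaf and Sdhaf. The rule gave 99 of 32285 gene rows, of which 86 are nuclear and 13 are mitochondrial. Complex I had 39 nuclear and 7 mitochondrial members, complex II 4 nuclear members, complex III 8 and 1, complex IV 18 and 3, and complex V 17 and 2. The symbol prefix set the complex, so Ndufa4, now known as a subunit of cytochrome c oxidase, is counted with complex I. Cyc1, for cytochrome c1 of complex III, has none of these prefixes. The complex III values lack it, and it is read with the electron carriers.

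The respiratory chain sits in the inner mitochondrial membrane. Complexes I and II pass electrons from NADH and succinate to ubiquinone, complex III (cytochrome bc1) hands them to cytochrome c, and complex IV (cytochrome c oxidase) hands them to oxygen. The protons pumped on the way drive complex V, the ATP synthase. Macrophages that keep a tissue in order are known to lean on this route, whereas neutrophils, which live briefly and carry few mitochondria, are known to make most of their ATP by glycolysis.

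The measurements are single-cell RNA sequencing of live immune cells (CD45+ and negative for the dead-cell dye 7-AAD) sorted from neonatal mouse hearts. The hearts were infarcted on postnatal day 2 and collected 7 days later, at an age of 9 days. The WT group was 1 library of 5 pooled hearts, and the Lyve1 KO group was 1 library of 5 pooled hearts from mice lacking Lyve1, the hyaluronan receptor of lymphatic endothelium and resident macrophages, in every tissue. Neither group had a replicate library or uninjured hearts, and the strain of the pools is not given in the sources used here, so genotype, strain, litter and library cannot be told apart in any KO against WT difference, and no p-value was computed.

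Values are summed unique molecular identifiers (UMIs, single captured RNA molecules) divided by all UMIs of the same cells and multiplied by 1000000 (CPM). Intervals are exact 95% intervals of the counting error and hold nothing of the variation among hearts. The tables held 67968938 UMIs (WT) and 61555917 (KO) over 5713 and 5285 barcodes, of which 4099 and 3293 cells were used, with medians of 11461 and 13275 UMIs. The libraries shared 9 cell barcodes, 3 of them among the cells used. Lyve1 was at 503 CPM (WT) and 20.7 (KO) in CCR2- macrophage-like cells, and at 1585 and 34.4 CPM in the cluster led by Ccl8, so the gene was low but present in the KO library. In the Spp1 and Gpnmb cluster (3.60 and 23.7 CPM) and in monocyte-like cells (0.120 and 4.12 CPM) it was higher in the library labelled KO.

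Cells had at most 10% mitochondrial UMIs. The 13 mt- genes of the tables are exactly the mitochondrial members, so that limit bounds their summed level in each cell. Just inside it, at 8 to 10%, were 59 WT cells with nuclear members at 6183 CPM and 63 KO cells at 12448 CPM. The 2 sets differed in make-up: 5.08% (WT) and 50.8% (KO) came from clusters of low depth, and median depths were 4618 and 1631 UMIs. Just outside it, at 10 to 12%, were 31 WT cells at 6968 CPM and 33 KO cells at 6061 CPM. There the shares from clusters of low depth were 12.9% and 33.3%, with median depths of 3277 and 1632 UMIs. Over the cells used, 95 of the 99 members reached 100 UMIs in WT and 94 in KO cells. The 4 that did not do so in either library were forms of subunits that are known from few tissues: Cox4i2 (97 and 55 UMIs), Ndufa4l2 (71 and 84), Cox7b2 (3 and 1) and Cox8c (0 and 0).

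By CPM, neutrophil-like cells had the lowest respiratory chain level of the 13 groups of cells, in both libraries and for both genomes. Groups were named from marker genes (X-like), or by their leading genes where the markers did not name them. The nuclear members summed to 6859 CPM in neutrophil-like cells of the WT library and 7085 of the KO library. The other 12 groups of cells with at least 20 cells in both libraries all lay above both values, from 11993 CPM in the clusters of low depth to 20511 CPM in the Saa3 and Prg4 cluster. The mitochondrial members summed to 3607 and 5353 CPM in neutrophil-like cells, and again all 12 other groups lay above. This order was not read under other scalings. Those given below, for CCR2- macrophage-like cells only, made the nuclear difference from neutrophil-like cells smaller.

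CCR2- macrophage-like cells, the resident macrophages of the heart, had nuclear members at 16335 CPM (WT) and 15963 (KO). The Spp1 and Gpnmb cluster of macrophages had 16363 and 17479 CPM, and monocyte-like cells 16005 and 16510 CPM. The Spp1 and Gpnmb cluster lay above CCR2- macrophage-like cells in both libraries, by less in WT than the libraries differed, and monocyte-like cells overlapped both. Nuclear levels above those of CCR2- macrophage-like cells in both libraries were also seen in the clusters led by Saa3 and Prg4 (18163 and 20511 CPM), by Cd209a and Cd209d (17911 and 20095) and by Ctla4 and Gzmb (18129 and 17396), and in dendritic cell-like cells (17167 and 18259). T cell-like cells, at 18743 and 15989 CPM, lay above them within each library, with ranges that overlapped. B cell-like cells lay below CCR2- macrophage-like cells, at 14166 and 15299 CPM. Without a cluster of very low nuclear level, described below, CCR2- macrophage-like cells had 16849 (WT) and 16436 CPM (KO). They then lay above the Spp1 and Gpnmb cluster in WT and above T cell-like cells in KO. Monocyte-like and B cell-like cells hold such a cluster too. Without theirs, monocyte-like cells had 16603 (WT) and 17332 CPM (KO), below CCR2- macrophage-like cells in WT and above them in KO. B cell-like cells then had 14755 and 15677 CPM, below them in both.

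The mitochondrial members did not follow that order. B cell-like cells had the highest level of any named class, 33077 CPM (WT) and 29966 (KO), above all others but the clusters of low depth, at 22917 and 40335 CPM. T cell-like cells came next with 23168 and 23925 CPM. CCR2- macrophage-like cells had 22092 and 20936 CPM, which overlapped NK cell-like cells (20990 and 21274) and lay above monocyte-like cells (15391 and 14996), the Spp1 and Gpnmb cluster (14893 and 14100) and dendritic cell-like cells (12367 and 13021). Mitochondrial UMIs were thus 2.34 (WT) and 1.96 (KO) times the nuclear ones in B cell-like cells and 0.720 and 0.713 times in dendritic cell-like cells.

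**Figure D1:**
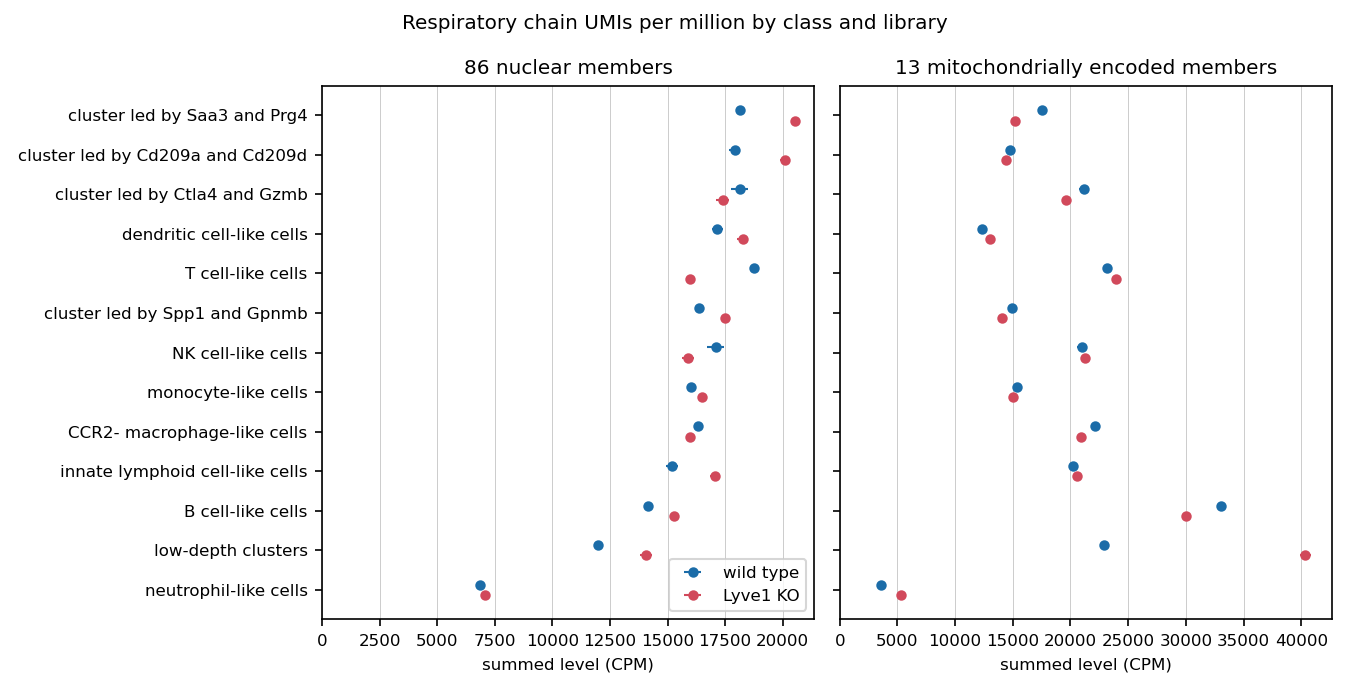
Summed level in CPM of the 86 nuclear members (left) and the 13 mitochondrially encoded members (right) in each of 13 groups of cells, with WT in blue, KO in red, and bars for exact 95% counting intervals that are mostly narrower than the points. Neutrophil-like cells stand alone at the bottom, at 6859 and 7085 CPM for the nuclear members, and B cell-like cells stand to the right in the mitochondrial panel.

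The division of these totals between the complexes varied less than the totals did. Complex I subunits took 26.0 to 31.0% of the nuclear UMIs over the 26 combinations of group and library, complex II 2.09 to 3.68%, complex III 7.77 to 9.75%, complex IV 24.2 to 30.4% and complex V 28.7 to 37.0%. Neutrophil-like cells of one library or the other held the highest shares of complexes I, II and IV and the lowest shares of III and V. For complex I the libraries differed, with 31.0% in KO and 28.6% in WT neutrophil-like cells, beside a median of 28.7%. Of the mitochondrial UMIs, complex IV took 49.2 to 61.2%, with the lowest share in the WT clusters of low depth.

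Most of the named members had their lowest level in neutrophil-like cells. Cox4i1, the main form of the regulatory subunit 4 of cytochrome c oxidase, was at 793 CPM (WT) and 722 (KO) in CCR2- macrophage-like cells and at 344 and 342 CPM in neutrophil-like cells. Atp5g3, for the membrane ring of the ATP synthase, had its highest WT level in T cell-like cells (701 CPM) and its lowest in neutrophil-like cells (80.8). Uqcrh, the hinge subunit of complex III, was highest in WT NK cell-like cells (663 CPM) and lowest in neutrophil-like cells (127). Sdhb, the iron-sulphur subunit of complex II, spanned 80.8 CPM in neutrophil-like to 167 CPM in monocyte-like cells of the WT library. Cox8a, another small subunit of cytochrome c oxidase, was at 587 CPM in CCR2- macrophage-like and 484 CPM in neutrophil-like WT cells. Its lowest WT level, 418 CPM, was in the clusters of low depth.

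Within the macrophage, monocyte and B cell classes, 3 clusters had the lowest nuclear levels of all 29 clusters. Their mitochondrial levels were above those of the rest of their class. A cluster of CCR2- macrophage-like cells led by Gm26917 and Plxna4 (129 WT and 57 KO cells) had nuclear members at 1461 and 1087 CPM, 11.5-fold and 15.1-fold below the rest of the class. A monocyte-like cluster led by Ldlrad3 and Rap1gap2 (60 and 82 cells) was 6.56-fold and 9.05-fold below its class, and a B cell-like cluster led by Gm26917 and Ebf1 (71 and 41 cells) was 11.3-fold and 8.68-fold below. Their mitochondrial members lay the other way, at 42229 and 37971 CPM in the macrophage cluster against 21397 and 20395 CPM in the rest of the class. The monocyte-like cluster had 25774 and 28650 CPM against 14931 and 14227, and the B cell-like cluster 43658 and 53417 CPM against 32591 and 29309. By member, 75 to 79 of the 78 to 81 nuclear members with enough UMIs were lower by at least 0.5 on the log2 scale in these clusters, beside 29.5 to 40.6% of all genes.

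The same clusters differed in RNAs that sort with the nucleus. Malat1, a nuclear long noncoding RNA, was at 25725 and 26404 CPM in the macrophage cluster and at 4852 and 5533 CPM in the rest of the class. Genes for cytosolic ribosomal proteins (Rpl and Rps) summed to 6797 and 4517 CPM there and to 106787 and 103159 CPM in the rest, 15.7-fold and 22.8-fold lower. The part of these RNAs in the low nuclear levels was not tested. Leaving that cluster out gave nuclear levels of 16849 CPM (WT) and 16436 (KO) in CCR2- macrophage-like cells.

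Among the other clusters, nuclear levels differed within monocytes, macrophages and T cells. Monocyte-like cells led by Vcan and Ly6c2, the classical kind, had nuclear members at 18183 to 19232 CPM over the libraries, and those led by Ace, the patrolling kind, at 12981 to 14113 CPM. The cycling macrophage cluster led by Cdc20 and Cenpf had 19663 to 21211 CPM, beside 14819 to 14901 CPM in the Ccl8 and Lyve1 cluster. T cell-like cells led by Arpp21, Dntt and Myb, genes of thymic precursors, had 22985 to 23981 CPM, the highest of the 29 clusters, and the other 3 T cell-like clusters 12887 to 13950 CPM. The ranges of the libraries did not overlap in any of these comparisons.

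**Figure D2:**
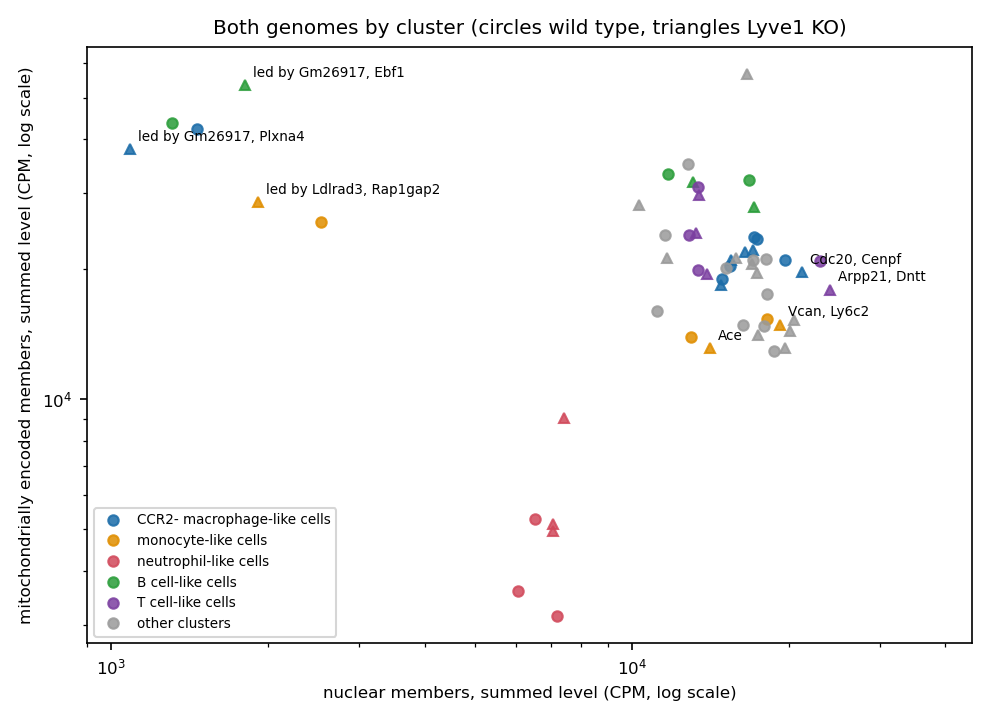
Each cluster with at least 20 cells in both libraries, by the summed CPM of its nuclear members (horizontal, log scale) and mitochondrially encoded members (vertical, log scale), with circles for WT, triangles for KO and colours for the classes. The 3 clusters at the left, at 1087 to 2529 CPM of nuclear members, have mitochondrial levels of 25774 to 53417 CPM, and the 3 neutrophil-like clusters lie at the bottom.

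Neutrophil-like cells were compared with CCR2- macrophage-like cells within each library. A gene was counted as lower or higher when its log2 ratio (of CPM + 10) was at least 0.5 in size, or 1.41-fold, in both libraries. Of 93 members with at least 100 UMIs over both classes in each library, 81 were lower and 0 higher, beside 54% and 13.4% of all 9213 genes. That minimum was met through the macrophages alone by 15 of the 93. With the minimum set within neutrophil-like cells instead, a filter chosen after the counts were seen, 67 of 78 members were lower and 0 higher, beside 28.9% and 27.3% of all 4751 genes. The 67 were 12 of 12 mitochondrial and 55 of 66 nuclear members. As sums, the nuclear members differed by a log2 ratio of -1.25 (WT) and -1.17 (KO) and the mitochondrial members by -2.61 and -1.97.

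These counts depended on the scaling of the summed counts. With edgeR TMM factors, which add 0.63 (WT) and 0.64 (KO) to each log2 ratio, 43 of the 78 members were lower and 1 higher, beside 14% and 44.2% of all genes. With DESeq2 size factors, which add 0.79 and 0.76, 36 were lower and 3 higher, beside 12.1% and 47.3%. All 12 mitochondrial members were lower under both, and the mean nuclear log2 ratio was -0.57 and -0.44.

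Members of the same complex differed widely in this comparison. Ndufc2, a membrane-arm subunit of complex I, was at 190 CPM (WT) and 164 (KO) in CCR2- macrophage-like cells and at 6.02 and 9.27 CPM in neutrophil-like cells. Atp5g2, which encodes the same ring protein of the ATP synthase as Atp5g1 and Atp5g3, was at 424 and 385 CPM against 36.5 and 32.4 CPM. Ndufa12, an accessory subunit of complex I, was at 101 and 92.2 CPM against 2.48 and 4.63 CPM. Atp5g2 had 103 and 98 UMIs in neutrophil-like cells. Ndufc2 (17 and 28 UMIs) and Ndufa12 (7 and 14) reached the minimum only through the macrophages and lay under the 10 CPM added before the logarithm, so their place at the low end rests on the filter. Among members with the minimum within neutrophil-like cells, Uqcrb of complex III (270 and 274 against 38.6 and 42.4 CPM) and Atp5o, the stalk subunit of the ATP synthase (229 and 212 against 28.7 and 46.0 CPM), followed Atp5g2.

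At the other end were 3 complex I members with log2 ratios between -0.20 and 0.02. Ndufb1-ps was at 137 and 186 CPM in CCR2- macrophage-like and 135 and 189 CPM in neutrophil-like cells. Ndufa3 was at 152 and 215 CPM against 136 and 195 CPM, and Ndufb9 at 141 and 128 CPM against 121 and 123 CPM. Intervals of Ndufb1-ps overlapped between the classes in both libraries.

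Between the genotypes the log2 ratios of the summed levels lay within 0.25 of 0 in the 6 large named classes, but for the mitochondrial members of neutrophil-like cells. The log2 ratio of KO over WT for the nuclear members was -0.03 in CCR2- macrophage-like cells, 0.10 in the Spp1 and Gpnmb cluster, 0.04 in monocyte-like, 0.05 in neutrophil-like, 0.11 in B cell-like and -0.23 in T cell-like cells. For the mitochondrial members it was -0.08, -0.08, -0.04, 0.57, -0.14 and 0.05 in the same order. In the clusters of low depth (846 WT and 522 KO cells, with medians of 1280.5 and 926.5 UMIs) it was larger, 0.82, with a nuclear ratio of 0.23. In the other 6 groups it lay between -0.20 and 0.07. With edgeR TMM or DESeq2 scaling the nuclear ratio of CCR2- macrophage-like cells changed sign, to 0.01 and 0.02. Counting intervals of these sums were narrow (for example -0.04 to -0.03 for the nuclear members of CCR2- macrophage-like cells) and hold none of the spread between hearts, so differences of this size cannot be set against it. By complex, CCR2- macrophage-like cells ranged from -0.11 (complex V, mitochondrial) to 0.06 (complex III, mitochondrial).

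Few single members passed the 0.5 fold on the log2 scale. In CCR2- macrophage-like cells, 1 of 94 members with at least 100 UMIs was higher in the KO library (Atp5k) and 1 lower (mt-Nd3), beside 0.708% and 0.763% of all 10876 genes. In the Spp1 and Gpnmb cluster 2 of 91 were higher and 1 lower (1.38% and 2.41% of all genes), in monocyte-like cells 2 of 92 and 1 (0.46% and 1.37%), and in B cell-like cells 2 of 91 and 1 (1.69% and 1.32%). In each of these 3 classes the genes were Atp5k and Ndufb1-ps, higher, and mt-Nd3, lower. These shares were near the background apart from the recurrence of the same genes. Over all members, the median log2 ratio was -0.07 in CCR2- macrophage-like cells beside -0.05 over all genes, and 88 of the 94 lay within 0.25 of 0.

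**Figure D3:**
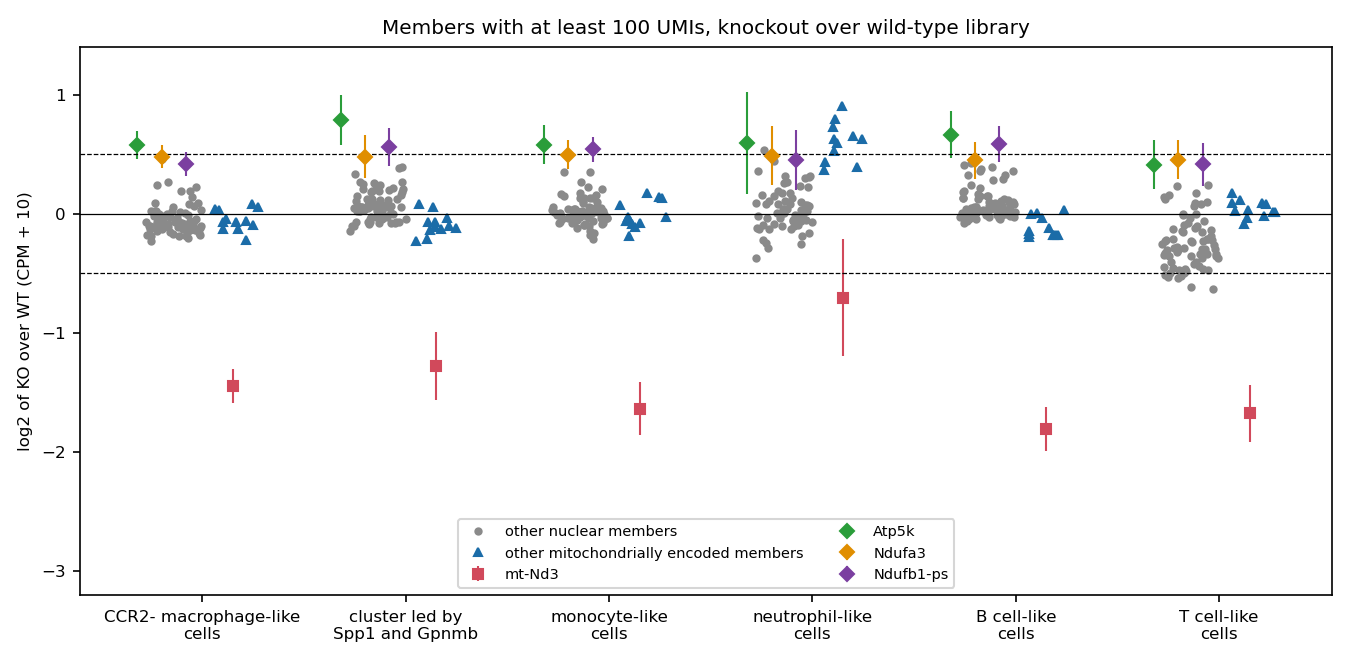
Log2 ratio of KO over WT (CPM + 10) of each member with at least 100 UMIs in 6 classes, with dashed lines at the 0.5 fold; grey points are nuclear and blue triangles mitochondrial members, and bars on the 4 named genes join the ends of both counting intervals. mt-Nd3 lies below -0.5 in all 6 classes, from -1.81 to -0.71, and Atp5k, Ndufa3 and Ndufb1-ps lie above 0 in all 6.

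The member with the largest difference between the libraries was mt-Nd3, the ND3 subunit of complex I, encoded at chrM:9459-9806 on the plus strand (GRCm38, GENCODE) between mt-Co3 and mt-Nd4l. In CCR2- macrophage-like cells it had 3808 UMIs or 146 CPM (142 to 151) in WT and 566 UMIs or 47.4 CPM (43.6 to 51.5) in KO hearts. It was at 212 and 53.4 CPM in B cell-like, 151 and 40.2 in T cell-like, 95.1 and 33.4 in the Spp1 and Gpnmb cluster, 88.0 and 21.6 in monocyte-like and 31.2 and 15.2 in neutrophil-like cells. The KO value was below the WT value in each, with intervals apart. The log2 ratios ran from -1.81 to -0.71.

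mt-Nd3 was 1 of only 3 genes, of 3934 with at least 100 UMIs in each of the 6 classes, that were lower by the fold in all 6 (0.0763%), with Trim12a and Dynlt1b. No gene was higher by the fold in all 6. Of the 78 members with enough UMIs in all 6 classes, 4 were below 0 in each (beside 6.96% of all genes) and 6 above 0 in each (2.49%). Leaving mt-Nd3 out, the mitochondrial log2 ratio was -0.07 in CCR2- macrophage-like and 0.58 in neutrophil-like cells.

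As a share of all mitochondrial UMIs, mt-Nd3 took 0.642% (8241 UMIs) in WT and 0.188% (2135 UMIs) in KO cells. It was lower in the KO library in 13 of 13 groups of cells, from 0.544 to 0.865% in WT groups and 0.0946 to 0.293% in KO groups, so the ranges did not overlap. No other mitochondrial member was apart in this way. mt-Cytb took 7.06% and 7.71%, mt-Atp6 4.94% and 5.55%, mt-Atp8 7.51% and 7.04%, and mt-Nd6, which alone lies on the light strand, 0.134% and 0.135%. The ranges over the 13 groups overlapped for each of these 12 members. Some still differed one way in most groups. The KO share was the lower in 10 of 13 groups for mt-Nd1, mt-Nd2 and mt-Atp8, in 2 for mt-Atp6 and mt-Nd4l, and in 1 for mt-Cytb. Intervals were apart in 8 groups for mt-Atp6 and for mt-Nd4l, 7 for mt-Atp8, 6 for mt-Nd1 and for mt-Cytb and 1 for mt-Nd2.

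The lower share was not confined to a few KO cells. Among cells with at least 400 mitochondrial UMIs, the median share of mt-Nd3 was 0.618% in 1333 WT cells and 0.165% in 1104 KO cells, and 3.38% of the WT cells and 34.2% of the KO cells had no UMI of it. Of the KO cells, 46.2% lay under the 5th percentile of the WT cells, 0.151%. The upper quartile of the KO cells (0.275%) lay below the lower quartile of the WT cells (0.389%). At this depth a KO cell can hold few or no UMIs of mt-Nd3. A shift in every cell and a mix among the pooled hearts therefore cannot be told apart. With female and male cells taken apart, a split added after the ratio was seen, the log2 ratio was below 0 in 12 of 12 combinations of class and sex, from -1.93 to -0.19. In barcodes outside the cell limits, where the mitochondrial members reached 434864 CPM (WT) and 552177 (KO), mt-Nd3 took 0.825% (6021 UMIs) and 0.0922% (934 UMIs) of the mitochondrial UMIs.

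**Figure D4:**
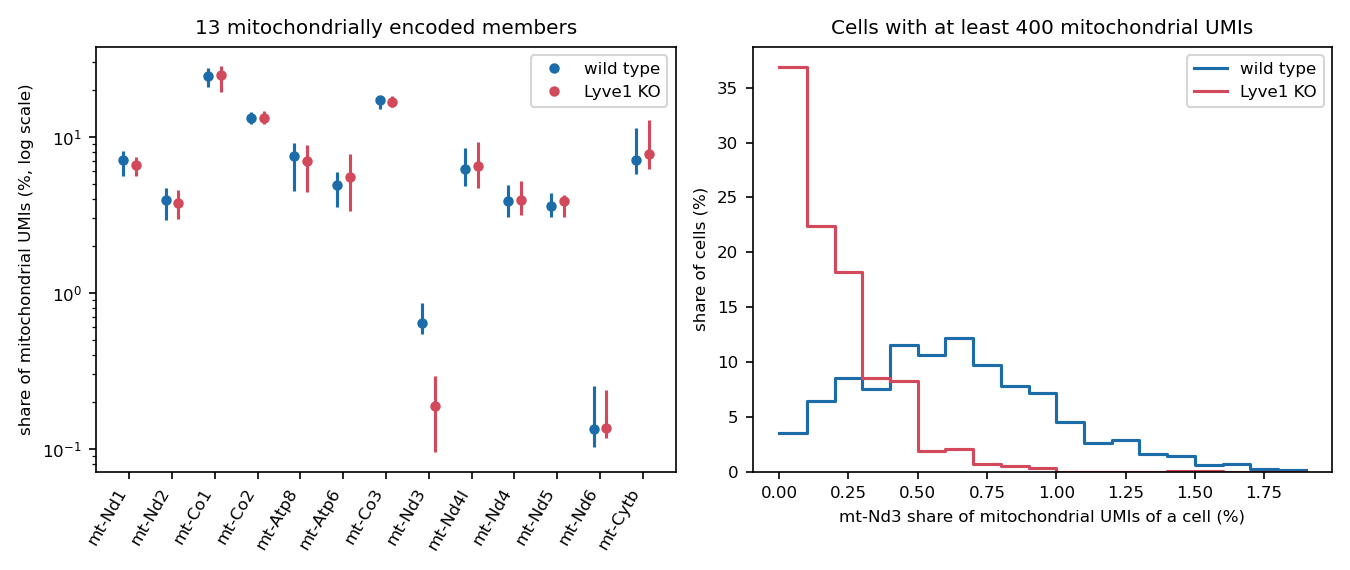
Left, share of all mitochondrial UMIs (log scale) of each of the 13 mitochondrially encoded members, with points for all cells of a library and bars from the lowest to the highest of 13 groups of cells; right, share of cells by the mt-Nd3 share of their mitochondrial UMIs, in cells with at least 400. For mt-Nd3 alone the WT bar (0.544 to 0.865%) and the KO bar (0.0946 to 0.293%) do not overlap.

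In the other direction, Atp5k, Ndufa3 and Ndufb1-ps had intervals apart and log2 ratios above 0 in each of the 6 classes. The share of all genes that did so was not counted. Atp5k, the e subunit that holds ATP synthase dimers together, was at 98.3 CPM (94.6 to 102) in WT and 152 CPM (145 to 159) in KO CCR2- macrophage-like cells. It was at 98.1 and 177 CPM in the Spp1 and Gpnmb cluster, 90.3 and 140 in monocyte-like, 30.1 and 50.6 in neutrophil-like, 75.3 and 125 in B cell-like and 96.1 and 131 in T cell-like cells. Its log2 ratio passed the fold in 5 of 6 classes and ran from 0.41 in T cell-like cells to 0.79 in the Spp1 and Gpnmb cluster.

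Ndufa3, an accessory subunit of complex I, stayed just under the fold at 0.45 to 0.50 in all 6 classes, for example at 152 CPM (WT) and 215 (KO) in CCR2- macrophage-like and 180 and 257 CPM in monocyte-like cells. Ndufb1-ps had 137 and 186 CPM in CCR2- macrophage-like and 234 and 345 CPM in monocyte-like cells, and log2 ratios of 0.42 to 0.59. In female and male cells taken apart, Atp5k, Ndufa3, Ndufb1-ps and Atp5e were above 0 in 12 of 12 combinations. Atp5e, the epsilon subunit of the ATP synthase, and Cox7c, a small subunit of cytochrome c oxidase, were also above 0 in all 6 classes, at 0.07 to 0.36 and 0.15 to 0.41. The annotation puts Tfpt over Ndufa3 and Cpsf2 over Ndufb1-ps on the opposite strand, and lists Ndufb1-ps as a noncoding RNA of a bidirectional promoter, so which gene of these pairs a read came from depends on the strand setting of the counting.

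The starts of Atp5k and Ndufa3 are shown because both lay above 0 in all 6 classes. RefSeq sequences of GRCm38.p6, from 250 bases before to 50 after the start, were found by symbol or unique synonym for 70 of the 86 nuclear members. Of these starts, 59 lay within 250 bases of the annotated start of the counted gene. A gene was counted when any of its sequences held the motif on either strand. The NRF1 motif, bound by the nuclear respiratory factor that many genes of this set are known to use, was in 17 of the 70 (24.3%). It was in 5.19% of all 27025 genes with such a sequence. The YY1 motif AAGATGGC was in 10 (14.3%, beside 3.19%), the ETS motif CCGGAAGT in 5 (7.14%, beside 4.31%) and the muscle E-box CAGCTG in 6 (8.57%, beside 18.3%). Capitals mark a match. Atp5k (chr5:108434350-108434649, minus strand) has an NRF1 match that reads the same on both strands, and Ndufa3 (chr7:3617123-3617422, plus strand) a YY1 match, so they share no motif searched. The entry matched to Ndufb1-ps, Ndufb1, starts 1330 bases from the annotated start of the counted gene and is not shown.
Atp5k: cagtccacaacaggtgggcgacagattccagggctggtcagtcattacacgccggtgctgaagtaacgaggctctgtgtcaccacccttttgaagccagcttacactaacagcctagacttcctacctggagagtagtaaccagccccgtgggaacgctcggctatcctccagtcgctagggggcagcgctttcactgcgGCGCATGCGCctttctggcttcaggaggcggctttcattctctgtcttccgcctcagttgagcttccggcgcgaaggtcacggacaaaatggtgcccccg
Ndufa3: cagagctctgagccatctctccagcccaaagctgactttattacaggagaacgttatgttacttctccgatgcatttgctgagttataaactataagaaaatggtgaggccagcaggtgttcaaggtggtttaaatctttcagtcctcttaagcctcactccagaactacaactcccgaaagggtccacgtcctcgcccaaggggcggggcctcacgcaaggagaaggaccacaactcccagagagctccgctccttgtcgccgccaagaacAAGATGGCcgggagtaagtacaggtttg

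T cell-like cells had a lower nuclear sum in the KO library over the class, and not within their clusters. Over the class, 8 of 92 members were lower and 0 higher, beside 9.53% and 5.08% of all genes. They were mt-Nd3, the complex I members Ndufa12 (135 CPM in WT and 83.9 in KO), Ndufc2 (185 and 118), Ndufb6 and Ndufb9, Sdhc, Cox5a (341 and 232) and Atp5b, the catalytic beta subunit of the ATP synthase (702 and 482). With edgeR TMM or DESeq2 scaling, which add 0.10 and 0.12 to each ratio, 3 were lower and 3 higher, beside 7.01% and 7.04% of all genes (TMM) and 6.65% and 7.54% (DESeq2). Within the 4 T cell-like clusters the nuclear log2 ratio was 0.00 to 0.06, with 1 or 2 of 69 to 91 members lower and 1 to 6 higher in each, beside 2.86%, 6.46%, 3.93% and 7.55% of all genes lower and 3.57%, 2.63%, 4.2% and 4.79% higher. The Arpp21, Dntt and Myb cluster, where the nuclear members are highest, held 38.1% of the T cell-like cells of the WT library and 15.6% of the KO library.

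In neutrophil-like cells the mitochondrial members were higher in the KO library while the nuclear sum stayed at a log2 ratio of 0.05. The mitochondrial sum was 3607 CPM (WT) and 5353 (KO), a log2 ratio of 0.57. Of 78 members with enough UMIs, 10 were higher and 1 lower, beside 2.61% and 5.3% of all genes. The higher ones were 8 of 12 mitochondrial members, among them mt-Nd4l (203 and 389 CPM), mt-Atp8 (162 and 289), mt-Nd5 (125 and 214) and mt-Cytb (302 and 481), together with Atp5k and Atp5o. mt-Nd3 was lower here too, at 31.2 and 15.2 CPM. Some other signs of mitochondrial RNA moved the same way. Of all barcodes, 10.5% (WT) and 16.5% (KO) were over 30% mitochondrial UMIs, and the clusters of low depth had 22917 and 40335 CPM. In most of the other large named classes, however, the mitochondrial sum was lower in the KO library. Its log2 ratio was -0.14 (B cell-like), -0.08 (Spp1 and Gpnmb cluster), -0.08 (CCR2- macrophage-like) and -0.04 (monocyte-like), against 0.05 (T cell-like). The part of any of these in the neutrophil difference was not tested.

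The size of this difference varied with the cells taken. By cluster, the mitochondrial sum was 3141 and 4941 CPM in the cluster led by Asprv1 and Stfa1, 5264 and 9049 in the cluster led by Acod1 and Il1rn, and 3593 and 5128 in the immature cluster led by Ngp and Camp. In male cells it was 3223 (147 cells) and 5807 CPM (110 cells), and in female cells 4790 (26 cells) and 5120 CPM (35 cells). The 9 WT and 21 KO cells over 2% mitochondrial UMIs held 2432 of 10179 and 5196 of 16170 mitochondrial UMIs of the class. In cells with at most 2% it was 2812 and 3818 CPM, and the median cell had 0.190% and 0.234% mitochondrial UMIs, beside 95th percentiles of 1.14% and 2.34%. The KO value was the higher in each cluster, in both sexes, in cells with at most 2% and in the median cell. Among the clusters and sexes, the smallest step was in female cells. In the cells over 2% the KO value was the lower, at 36350.6 (WT) and 35446.5 CPM (KO). Within female cells mt-Atp8 turned to a log2 ratio of -0.25.

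Tissue forms of cytochrome c oxidase were next compared with the forms used everywhere. Cox6a2, Cox7a1 and Cox8b are the heart and skeletal muscle forms of subunits 6a, 7a and 8, and Cox6a1, Cox7a2 and Cox8a the wide forms. The wide forms had 27002, 14715 and 37245 UMIs in WT cells, and the heart forms 522, 415 and 173. In 8 WT and 5 KO cells led by the cardiomyocyte genes Actc1 and Myl3, Cox6a2 was at 2265 and 332 CPM, Cox7a1 at 824 and 300 and Cox8b at 1384 and 205, with 12 cardiomyocyte markers summing to 96946 and 14078 CPM. The heart forms were thus high in both libraries where cardiomyocyte RNA was high.

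In CCR2- macrophage-like cells, Cox6a2 was at 5.57 CPM (WT) and 11.4 (KO), Cox7a1 at 9.26 and 8.96 and Cox8b at 1.65 and 2.76, beside 154 and 131 CPM of the 12 cardiomyocyte markers, all 12 of them with UMIs. In the cells of this class with no UMI of these markers (501 WT and 210 KO cells), Cox6a2 was at 0.967 and 3.81 CPM but Cox7a1 at 6.98 and 6.91 CPM. Cox7a1 was at 11.6 and 7.61 CPM in cells of the Spp1 and Gpnmb cluster with no such UMI, and at 1.03 and 0.948 CPM in those of monocyte-like cells, at median depths of 22655 and 27600.5 and of 16774 and 19686.5 UMIs. With 5000 UMIs drawn from each cell, 4.47% and 3.34% of CCR2- macrophage-like cells and 0.237% and 0.410% of monocyte-like cells had a UMI of Cox7a1. Cox7a1 in macrophages lay above monocytes in both libraries, also where cardiomyocyte markers were at 0.

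Plasmacytoid dendritic cell-like cells had Cox6a2 without any other heart form. This class had fewer than 20 cells in each library. In the WT library 10 of 16 cells had 146 UMIs, or 506 CPM (427 to 595), and in the KO library 4 of 11 cells had 58 UMIs, or 246 CPM (187 to 318). Without the cell with the most UMIs the levels were 446 and 151 CPM. Cox7a1, Cox8b and all 12 cardiomyocyte markers were at 0 in these cells of both libraries. With 3 UMIs taken as the most that a count of 0 allows, that is up to 10.4 and 12.7 CPM of each. In monocyte-like cells, at similar median depths (16836 and 19974 against 18697.5 and 23158 UMIs), 0 of 479 and 3 of 538 cells had a UMI of Cox6a2. The 0 allows up to 0.767% of cells with a UMI and sets no limit on cells that express the gene. With 5000 UMIs drawn from each cell, 9 of 15 and 4 of 10 plasmacytoid dendritic cell-like cells had a UMI. Itgad lies over Cox6a2 (chr7:128205435-128206387, minus strand) on the opposite strand.

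**Figure D5:**
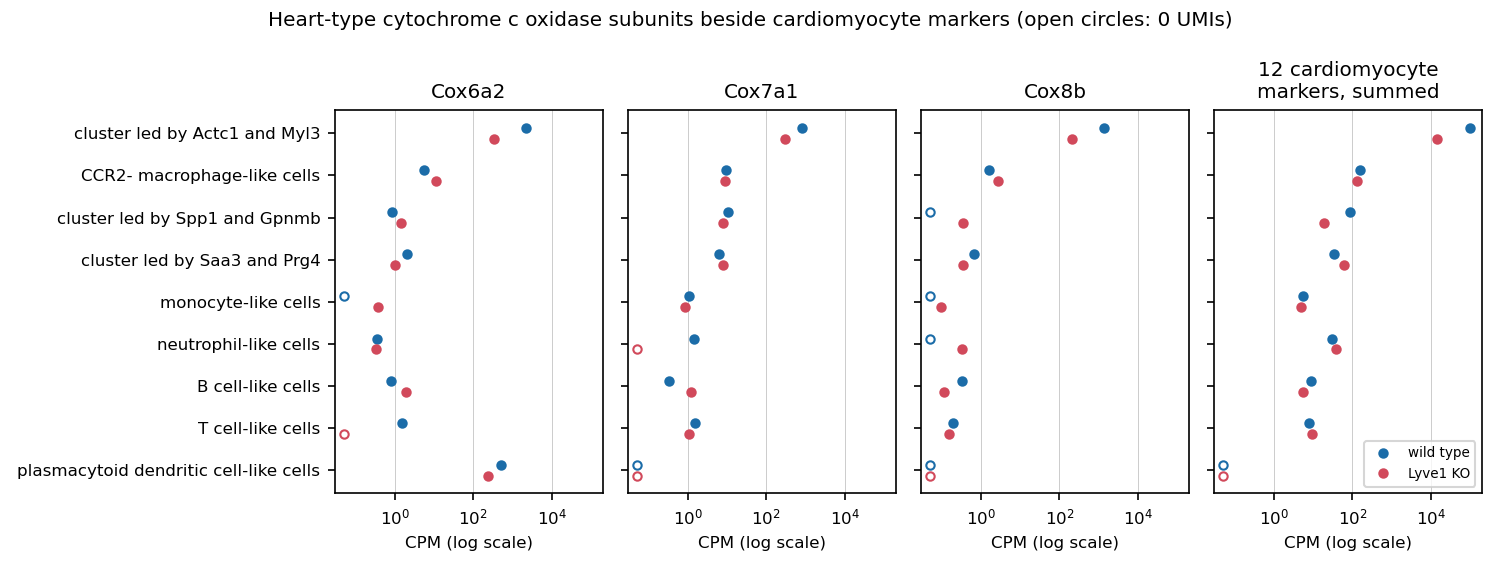
CPM (log scale) of the heart forms Cox6a2, Cox7a1 and Cox8b and of 12 cardiomyocyte markers summed, by group of cells and library; open circles at the left edge are at 0 UMIs. Plasmacytoid dendritic cell-like cells have Cox6a2 at 506 and 246 CPM with the other 3 quantities at 0, whereas the Actc1 and Myl3 cells have all 4.

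Other rare forms were highest in other groups. Cox4i2 and Ndufa4l2, forms known from hypoxia and from pericytes and smooth muscle, were at 112 and 55.6 CPM and at 190 and 116 CPM in the small cluster led by Fabp4 and Sparc (14 and 23 cells), and at no more than 2.50 CPM in CCR2- macrophage-like cells. Cox6b2, known as the testis form of subunit 6b, was at 30.7 and 32.2 CPM in the Cd209a and Cd209d cluster, 17.4 and 15.1 CPM in the Vcan and Ly6c2 monocytes and 6.34 and 7.04 CPM in CCR2- macrophage-like cells. The intervals of the first and the last did not overlap in either library. Its wide form Cox6b1 had 22019 and 19676 UMIs over all cells and Cox6b2 457 and 400.

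The sequences of Cox8b and Cox7a1 starts are shown as the heart forms with a RefSeq entry matched here, with Cox6a2 unmatched. Cox8b (chr7:140900397-140900696, minus strand) holds 2 E-box matches, in capitals, and Cox7a1 (chr7:30183921-30184220, plus strand) holds none of the 4 motifs.
Cox8b: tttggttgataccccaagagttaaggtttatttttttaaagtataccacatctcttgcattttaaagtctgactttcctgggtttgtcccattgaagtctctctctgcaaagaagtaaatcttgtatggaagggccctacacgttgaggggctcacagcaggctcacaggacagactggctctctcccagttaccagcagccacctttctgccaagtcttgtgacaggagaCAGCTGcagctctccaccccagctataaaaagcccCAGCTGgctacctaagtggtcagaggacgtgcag
Cox7a1: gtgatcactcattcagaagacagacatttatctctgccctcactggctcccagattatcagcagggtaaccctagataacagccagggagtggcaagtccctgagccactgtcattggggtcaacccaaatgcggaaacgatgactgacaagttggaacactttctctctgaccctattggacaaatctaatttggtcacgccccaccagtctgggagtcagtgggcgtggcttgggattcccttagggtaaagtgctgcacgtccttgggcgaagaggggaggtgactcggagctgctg

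Other genes of mitochondrial energy metabolism were read in 6 lists, and few passed the fold between the libraries. Of 9 electron carriers and related enzymes, 5 had enough UMIs in neutrophil-like cells and 7 or 8 in the other classes. None passed in CCR2- macrophage-like, monocyte-like or B cell-like cells. Coq10b was lower in the Spp1 and Gpnmb cluster (156 CPM in WT and 107 in KO) and in neutrophil-like cells (241 and 161). Beside it, 2.41% and 5.3% of all genes were lower there. Of 44 assembly factors, 10 had enough UMIs in neutrophil-like cells, 27 in the Spp1 and Gpnmb cluster and 38 to 43 in the others. Sdhaf1, which helps build complex II, was lower in CCR2- macrophage-like (15.7 and 7.29 CPM) and B cell-like cells (22.7 and 11.7). Beside it, 0.763% and 1.32% of all genes were lower there. No other assembly factor passed in any of the 6 classes. Of 16 regulators of mitochondrial transcription and biogenesis, none with enough UMIs passed in any class. Only 3 had enough in neutrophil-like cells, 11 in the Spp1 and Gpnmb cluster and 12 to 14 in the others. Of 17 genes of the TCA cycle, 9 had enough UMIs in neutrophil-like cells and all 17 in the others. None passed outside T cell-like cells, where Fh1 and Idh2 were lower with Etfa of the carriers, beside 9.53% of all genes.

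Of 78 genes of the mitochondrial ribosome, none passed in CCR2- macrophage-like, monocyte-like and B cell-like cells, 1 was lower in the Spp1 and Gpnmb cluster, 2 were higher and 2 lower of 23 with enough UMIs in neutrophil-like cells, and 6 of 77 were lower in T cell-like cells. These counts stand beside 2.41% of all genes lower in the Spp1 and Gpnmb cluster, 2.61% higher and 5.3% lower in neutrophil-like cells and 9.53% lower in T cell-like cells. In the list of uncoupling and hypoxia genes, Acod1, which makes the complex II inhibitor itaconate, was at 923 CPM (WT) and 386 (KO) in neutrophil-like cells and at 13.9 and 2.11 CPM in monocyte-like cells, lower in both. It was higher in CCR2- macrophage-like cells, at 1.57 and 7.46 CPM, below the 10 CPM added before the logarithm. Of the neutrophil-like cells, 79 of 349 (WT) and 44 of 335 (KO) were in the cluster led by Acod1 and Il1rn. The part of that mix in the Acod1 difference was not tested. Bnip3, a mitophagy receptor, was higher in the Spp1 and Gpnmb cluster (69.9 and 109 CPM), and Atpif1, the inhibitor of the ATP synthase, was lower in T cell-like cells. In each of these classes 1 gene passed, of 6 with enough UMIs in neutrophil-like and T cell-like cells and of 8 in the others. Of all genes, 0.708% were higher in CCR2- macrophage-like cells and 1.38% in the Spp1 and Gpnmb cluster. Lower were 1.37% in monocyte-like, 5.3% in neutrophil-like and 9.53% in T cell-like cells.

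Between neutrophil-like and CCR2- macrophage-like cells, the lists were counted with the minimum set within neutrophil-like cells, beside 28.9% of all genes lower and 27.3% higher. Of the mitochondrial ribosome 16 of 23 were lower and 1 higher, of the TCA cycle 4 of 9 and 1, of the assembly factors 3 of 10 and 1, of the regulators 1 of 3 and 0, of the carriers 3 of 5 and 2, and of the uncoupling and hypoxia list 1 of 6 and 3. With TMM or DESeq2 scaling, 6 and 4 of the 23 genes of the mitochondrial ribosome were lower, beside 14% and 12.1% of all genes. The genes higher in neutrophil-like cells were Coq10b, Gpd2, Cox17, Mdh2, Mrpl33, Acod1, Bnip3 and Bnip3l, and each stayed higher under both scalings. Ndufaf7, Dlst, Nrf1 and Yy1 were higher under the 2 scalings only, beside 44.2% (TMM) and 47.3% (DESeq2) of all genes. The regulators then had 0 of 3 lower and 2 higher, the assembly factors 2 of 10 and 2, and the carriers 2 of 5 and 2, under both. The TCA cycle had 2 of 9 lower and 2 higher with TMM, and 1 and 2 with DESeq2. Gpd2 carries glycerol phosphate electrons straight to ubiquinone, and Bnip3 and Bnip3l mark mitochondria for removal.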

How the data were processed

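Live CD45+ cells of 1 WT and 1 Lyve1 KO library were profiled with 10x 5′ chemistry. The authors aligned reads to mm10 with Cell Ranger 8.0.1, per the labels, and deposited UMI counts per gene and barcode, with nothing normalised. Barcodes under 500 genes or 250 UMIs, or over 30% mitochondrial UMIs, were dropped, which left 4285 (WT) and 3464 (KO). Scores from scanpy 1.11.5 were ranked and the highest 98 and 73 barcodes left out as doublets, since the demultiplexing by donor that the study used was not repeated here. Cells were clustered with Seurat 5.3.0 (2000 variable features, 30 dimensions, resolution 0.8) without the members, and levels were read in cells with at most 10% mitochondrial UMIs.

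A cluster was named from marker lists, and a low-depth test and the use of its top 10 genes by fold were settled after the data were seen. The cluster nearest the CCR2+ macrophage list is given by its leading genes Spp1 and Gpnmb. Counts were summed per class and library and given as CPM with exact Poisson intervals, or exact binomial ones for shares of cells. Ratios are log2 of CPM + 10. A member counted as higher or lower needed at least 100 UMIs and a ratio of at least 0.5 in size. Classes needed 20 cells in each library.

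The rule for members used symbols and no measured value. Members and lists were still chosen with earlier results of these data known. The rules for naming took in all 13 mitochondrial members, the 3 most abundant nuclear members of each complex and the isoforms. They also took in members past 0.5 in all 6 classes and the 3 highest and lowest ratios of each comparison. Those comparisons were KO against WT in 6 classes, and neutrophil-like against CCR2- macrophage-like cells. Not all of these members are given in the text. Other members named were chosen after their values were seen. Alternatives changed the mitochondrial, gene and UMI limits, doublets, denominator, scaling (edgeR 4.0.16 TMM, DESeq2 1.42.0 size factors), pseudocount, weighting and clustering. A minimum of 100 UMIs within neutrophil-like cells was added after the counts were seen. The scripts (R 4.3.3, Python 3.11.15) were tested on simulated data. Gene positions came from GENCODE M21.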

Additional observations from a re-analysis of the deposited data

Results flagged for a closer look

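The mitochondrial members of neutrophil-like cells had a log2 ratio of KO over WT of 0.57, while it was -0.14 in B cell-like cells, -0.08 in CCR2- macrophage-like cells, -0.08 in the Spp1 and Gpnmb cluster and -0.04 in monocyte-like cells. In T cell-like (0.05), dendritic cell-like (0.07), innate lymphoid cell-like (0.03) and NK cell-like cells (0.02) and in the clusters of low depth (0.82) the ratio was above 0 as in neutrophil-like cells. In the Spp1 and Gpnmb cluster it was 0.00085 at the 5% mitochondrial limit. The difference between the classes was not tested, since each genotype is 1 library.

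Barcodes outside the cell limits held 136 UMIs (81.0 CPM) of Cox6a2, Cox7a1 and Cox8b in the WT library and 117 UMIs (63.8 CPM) in the KO library. Both lay above the 1.79 and 1.64 CPM that a count of 0 allows, taken as 3 UMIs. The 12 cardiomyocyte markers summed to 1829 and 1053 CPM in the same barcodes.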

How the results depend on the processing

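No paired analysis was possible because each genotype is 1 library, and for the same reason no library could be left out. The nuclear log2 ratio of KO over WT in CCR2- macrophage-like cells (-0.03) turned to 0.0093 with edgeR TMM and 0.015 with DESeq2 scaling. In the Spp1 and Gpnmb cluster it moved from 0.10 to 0.14 under both, to 0.13 without cell cycle regression and to 0.12 as a mean of per-cell shares. In monocyte-like cells it moved from 0.04 to 0.061 with doublets kept, where the Vcan and Ly6c2 cluster stayed unnamed, and to 0.062 without the clusters of low nuclear level, an alternative chosen after seeing the data. The mitochondrial ratio in CCR2- macrophage-like cells (-0.08) was -0.064 at the 30% limit, -0.11 at 5%, -0.035 with TMM, -0.029 with DESeq2 scaling, -0.020 as a mean of per-cell shares and -0.069 without those clusters. The nuclear ratio of neutrophil-like over CCR2- macrophage-like cells (mean -1.21) was -1.23 at the 5% limit, -1.16 with doublets kept, -1.24 without mt- genes in the denominator, -0.57 with TMM, -0.44 with DESeq2 scaling, -0.995 as a mean of per-cell shares and -1.25 without those clusters. With CPM + 1 the members past the fold in CCR2- macrophage-like cells were 4 in place of 2. The share of all genes was not counted under CPM + 1. The 81 of 93 members lower in neutrophil-like than in CCR2- macrophage-like cells stood beside 54% of all 9213 genes. With DESeq2 scaling they were 49, beside 35.9% of all genes. The cause of these shifts was not tested.

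For the named members, 347 of 360 ratios under 10 other settings moved by less than their counting error and 13 by more. Sign changes were counted only for ratios of at least 0.5 in size, and none of those changed sign. Of 90 under the alternatives chosen after seeing the data, 60 moved by less and 29 by more. In 1, also of at least 0.5 in size, the sign changed: mt-Atp8 in neutrophil-like cells, from 0.80 to -0.25 in female cells. mt-Nd3 stayed past the fold under all 10 alternatives in each of the 6 classes, and Atp5k in 5, but under 2 of 10 in T cell-like cells.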
